A study of Mus musculus with 5 samples.

Results

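The Hoxd cluster of chromosome 2 was examined for H3K27me3, the trimethylation of lysine 27 of histone H3, in cultured dermal fibroblasts of 2 embryonic stages. It comprises 9 protein-coding genes, Hoxd13, Hoxd12, Hoxd11, Hoxd10, Hoxd9, Hoxd8, Hoxd4, Hoxd3 and Hoxd1, of 55450 genes in the annotation. The cluster was chosen by the peak lists themselves, since earlier results of these data had shown peaks over its middle genes at E14 that were missing at E17. The differences between stages at these genes are therefore given as a description, with no test. All peaks were taken that overlapped the stretch from the first to the last of the 9 genes plus 10 kb on either side, chr2:74658310-74775142 in GRCm38, 116.833 kb in length.
The data were H3K27me3 ChIP-seq peak lists of 4 libraries of wild-type (WT) mouse dermal fibroblasts, 2 labelled E14 and 2 labelled E17, that is embryonic days 14 and 17. The methods of the study stage the same comparison at E14.5 and E18.5, and state that dermal preparations of skin were expanded in culture before the chromatin was taken, so the cells are cultured cells and not dermis as it was in the embryo. The methods give a C57BL/6 background for the mice. They name back skin for the histology and no body site for the ChIP-seq cells. Neither the labels nor the methods say whether the replicates came from separate embryos, so the spread between replicates may be technical. The stages were compared in the study to ask how this repressive mark differs between early dermal fibroblast progenitors and late embryonic fibroblasts. A peak is a stretch where antibody-recovered fragments pile up above background, and its fold enrichment is the ratio of that pileup to the background, as the authors' peak caller averaged it over the peak.
The lists held 21546 and 16574 peaks at E14 and 10429 and 7107 peaks at E17. Peaks covered 52.8 and 32.1 Mb of the genome at E14 and 19.996 and 14.3 Mb at E17, so the mean length was 59.6% lower at E17 over the whole genome. Read counts are not part of the lists, so library depth could not be read from them. The methods state that wild-type and Kdm6b-deleted E18.5 samples were brought to the depth of the others, and it is not clear whether this covers the E17 libraries. An absent peak means only that the signal did not reach the threshold of that list. Of 10 dermal fibroblast marker genes (Col1a1, Col1a2, Col3a1, Pdgfra, Twist2, Dpt, Lum, Vim, Thy1 and Fbn1), 0 had a peak in any library within 3000 bp of a start site. The keratinocyte gene Cdh1, the melanocyte and Schwann cell gene Sox10 and the muscle genes Myod1 and Pax7 had one in all 4 libraries. The muscle gene Myf5 had 3359 and 463 bp covered at E14 and 0 bp in both E17 libraries. Krt5, Krt14 and Trp63 of keratinocytes, Pecam1 and Cdh5 of endothelium, Ptprc of immune cells and Dct of melanocytes had none in any library, as did the fibroblast genes, so the absence of the mark did not single out the labelled cell type.

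Hox genes encode homeodomain transcription factors that give cells their position along the body axis. In each mammalian cluster the genes lie in the order in which they are used, from the group 1 gene at the anterior-acting end to the group 13 gene at the posterior-acting end, and fibroblasts keep a Hox code of the body site from which they came. H3K27me3 is laid down by Polycomb repressive complex 2, of which Ezh2 is the catalytic subunit, and covers silent Hox genes as wide domains, while Kdm6a and Kdm6b remove it. All 9 Hoxd genes are transcribed from the plus strand, so the chromosome runs from Hoxd13 through Hoxd9 and Hoxd8 to Hoxd4, Hoxd3 and Hoxd1.
The promoters of 4 members are printed because they span the range seen at E17, from full cover at Hoxd10 through the uncovered Hoxd9 and Hoxd4 to the small peak left at Hoxd1. They are RefSeq windows of 300 bases in GRCm38.p6, which end 50 bases after the start site, and capitals mark each CG dinucleotide (CpG), which can be methylated and is frequent in CpG islands.
Hoxd10 promoter, chr2:74691641-74691940, plus strand: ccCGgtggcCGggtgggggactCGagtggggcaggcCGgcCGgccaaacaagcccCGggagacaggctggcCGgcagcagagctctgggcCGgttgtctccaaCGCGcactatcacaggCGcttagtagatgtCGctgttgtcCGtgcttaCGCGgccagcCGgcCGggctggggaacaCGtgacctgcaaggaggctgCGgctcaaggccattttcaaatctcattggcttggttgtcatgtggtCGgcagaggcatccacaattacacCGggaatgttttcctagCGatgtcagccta
Hoxd9 promoter, chr2:74697513-74697812, plus strand: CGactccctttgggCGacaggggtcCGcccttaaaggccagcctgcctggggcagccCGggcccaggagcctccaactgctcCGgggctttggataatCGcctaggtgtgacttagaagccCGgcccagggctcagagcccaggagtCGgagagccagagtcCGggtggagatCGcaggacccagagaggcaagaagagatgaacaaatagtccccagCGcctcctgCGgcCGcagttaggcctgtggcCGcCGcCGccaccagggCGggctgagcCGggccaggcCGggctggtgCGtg
Hoxd4 promoter, chr2:74721728-74722027, plus strand: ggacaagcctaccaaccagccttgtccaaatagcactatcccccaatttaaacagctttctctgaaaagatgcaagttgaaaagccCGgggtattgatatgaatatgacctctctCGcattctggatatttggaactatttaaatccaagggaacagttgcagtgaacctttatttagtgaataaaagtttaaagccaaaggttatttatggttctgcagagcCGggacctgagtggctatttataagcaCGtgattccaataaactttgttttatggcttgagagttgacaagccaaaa
Hoxd1 promoter, chr2:74762730-74763029, plus strand: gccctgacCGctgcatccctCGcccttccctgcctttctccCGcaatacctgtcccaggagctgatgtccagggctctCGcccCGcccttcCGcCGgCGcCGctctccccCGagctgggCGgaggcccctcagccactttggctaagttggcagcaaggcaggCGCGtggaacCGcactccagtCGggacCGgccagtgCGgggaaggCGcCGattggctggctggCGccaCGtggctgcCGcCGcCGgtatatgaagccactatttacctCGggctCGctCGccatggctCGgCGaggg
All 9 members matched RefSeq, with 10 windows because Hoxd11 has 2. The motif CG, which reads the same on both strands, occurred 22 times in the Hoxd10 window, 20 times in Hoxd9, 4 times in Hoxd4 and 29 times in Hoxd1. At least as many CpG were found in 23.1%, 26.5%, 68.6% and 12.9% of all 32851 promoter windows of the same length, whose median was 7. The Hoxd13 window held 37, Hoxd12 held 13, Hoxd3 held 20, Hoxd8 held 6, and the Hoxd11 windows held 4 and 25. A CpG-poor window was fully covered at Hoxd11 in all 4 libraries and was covered only in E14 replicate 1 at Hoxd4, and a window of 20 CpG was covered in part or in full in both E14 libraries at Hoxd9 and only in E14 replicate 1 at Hoxd3.
The end of the wide E17 domain is printed because both E17 libraries stopped there. It is chr2:74697090-74697389 on the plus strand of GRCm38, with capitals for the 34 bases between the last position of the wide peak in E17 replicate 2 (74697222) and that in E17 replicate 1 (74697256), and it overlaps the non-coding genes Gm14396 and Gm28793.
End of the wide E17 peaks: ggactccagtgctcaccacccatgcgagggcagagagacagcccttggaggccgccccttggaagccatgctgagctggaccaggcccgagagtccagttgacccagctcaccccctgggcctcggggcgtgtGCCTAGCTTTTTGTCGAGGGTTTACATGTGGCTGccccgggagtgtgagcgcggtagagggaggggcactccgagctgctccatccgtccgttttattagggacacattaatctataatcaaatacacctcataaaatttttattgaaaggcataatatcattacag

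The mean length of the Hoxd stretch under peaks was 92.0 ± 20.02 kb (SD, n = 2) at E14 and 42.6 ± 0.379 kb (SD, n = 2) at E17. Most of the difference lay between Hoxd9 and Hoxd1. By library, peaks covered 106.155 and 77.845 kb at E14 and 42.838 and 42.302 kb at E17. These are 90.9%, 66.6%, 36.7% and 36.2% of the stretch, so the stages did not overlap and the E14 replicates lay far further apart than the E17 replicates. The mean was 53.7% lower at E17, beside the 59.6% of the whole lists. In a bulk culture, fewer cells with the mark and a weaker mark in every cell cannot be told apart. Whether depth or the stage sets the shorter lists at E17 cannot be told apart either.
The 2 E17 libraries covered nearly the same bases, with 40.8 kb in common, or 92.1% of their union, and the E14 libraries shared 77.8 kb, or 73.3% of their union. Between stages the shared length was 39.8% to 55.0% of the union. All of the length common to the E17 libraries was also covered in both E14 libraries, and 0 bp were covered at E17 but in neither E14 library. Of the length common to the E14 libraries, 43.9% had no peak at E17. Thus 34.9% of the stretch was covered in all 4 libraries, 29.3% in both E14 libraries only, 23.7% in E14 replicate 1 only and 9.14% in none.

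**Figure D1:**
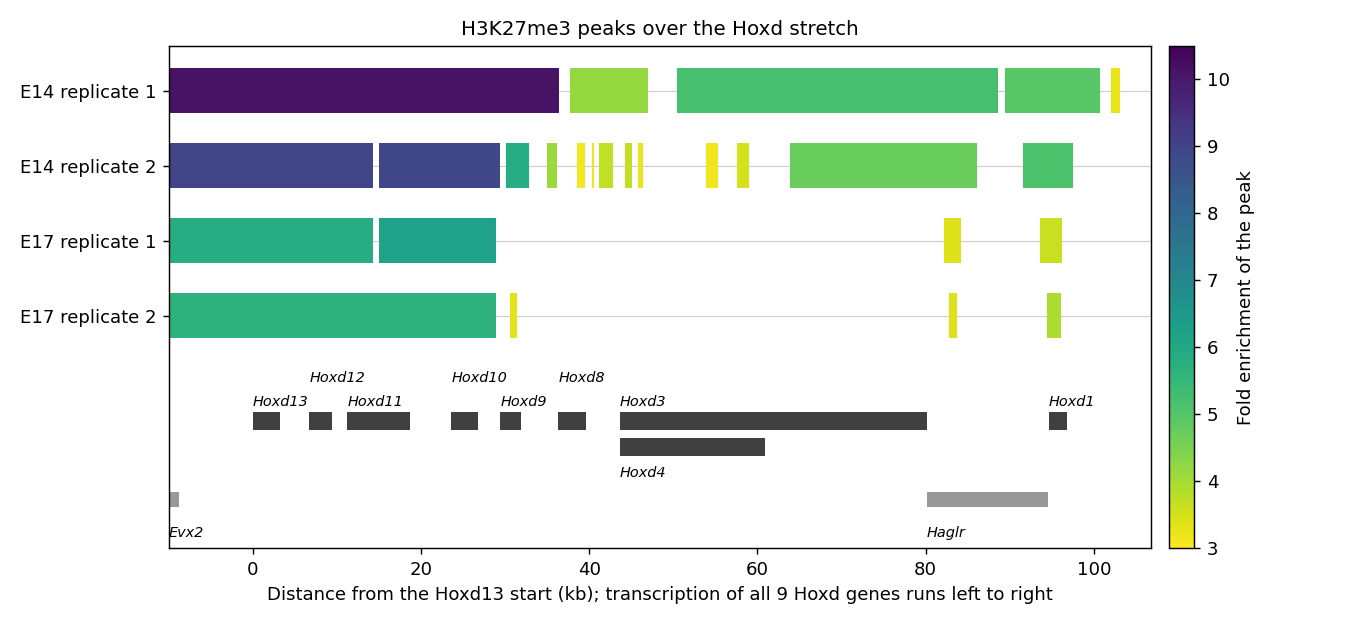
H3K27me3 peaks over the Hoxd stretch in each of the 4 libraries, with distance from the Hoxd13 start in kb on the x axis, each bar a peak coloured by its fold enrichment, and dark boxes for the 9 Hoxd genes (grey for Evx2 and Haglr). The block from Hoxd13 to Hoxd10 was covered in every library but for a gap of 648 bp in E14 replicate 2 and 682 bp in E17 replicate 1. From Hoxd9 to Hoxd1, E14 replicate 1 had wide peaks, and E14 replicate 2 had mostly short peaks and a peak of 22.3 kb. The E17 libraries had gaps of 53.2 and 51.3 kb there.

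At the posterior-acting end, Hoxd13, Hoxd12, Hoxd11 and Hoxd10, which pattern the limb and the hind body, kept their cover. Cover there was at or near its maximum in every library, so covered length could not show a weaker mark. From 10 kb before Hoxd13 to the RefSeq start of Hoxd9 (74697763), 39.453 kb, peaks covered 39.5 and 38.7 kb at E14 and 38.3 and 38.9 kb at E17. E17 replicate 2 lay between the E14 libraries and E17 replicate 1 below both, so the stages overlapped, with means of 39.1 ± 0.499 and 38.6 ± 0.458 kb (SD, n = 2 each). This division of the stretch and the ones below were chosen after the values were seen.
Within 3000 bp of a start site, the Hoxd13, Hoxd12 and Hoxd10 windows of 6001 bp each were covered whole in all 4 libraries. Hoxd11, with start sites at 74679557 and 74682323 and a window of 8767 bp, had 8767 and 8119 bp covered at E14 and 8085 and 8767 bp at E17, so the stages overlapped. The strongest peak at Hoxd13 and Hoxd12 had a fold enrichment of 10.1 and 9.001 at E14 and 5.84 and 5.68 at E17, each above at least 99.1% of the peaks of its own list. Fold enrichment was read only within a list, since the lists share no common scale. The widest Hoxd peaks were 61.8 and 37.6 kb at E14 and 35.4 and 49.8 kb at E17, and they ranked 7, 13, 8 and 3 by width in their lists. Hence this end of the cluster was among the widest and strongest domains at both stages.
The shortfall at Hoxd11 was 1 gap over its first coding exon, which is printed because it fell at almost the same bases in 1 library of each stage. E14 replicate 2 had no peak over 648 bp and E17 replicate 1 none over 682 bp, and the bases common to both gaps, chr2:74682614-74683261, had 78.2% G and C and 14.2 CpG per 100 bp. The whole stretch had 48.4% and 2.63 CpG per 100 bp. Of the gap, 554 bp lay in the coding exon (74682393 to 74683167) and the rest in the intron after it. The other library of each stage had a peak across it. The middle 300 bases, chr2:74682788-74683087 on the plus strand of GRCm38, are all coding, with CpG in capitals.
Hoxd11 gap: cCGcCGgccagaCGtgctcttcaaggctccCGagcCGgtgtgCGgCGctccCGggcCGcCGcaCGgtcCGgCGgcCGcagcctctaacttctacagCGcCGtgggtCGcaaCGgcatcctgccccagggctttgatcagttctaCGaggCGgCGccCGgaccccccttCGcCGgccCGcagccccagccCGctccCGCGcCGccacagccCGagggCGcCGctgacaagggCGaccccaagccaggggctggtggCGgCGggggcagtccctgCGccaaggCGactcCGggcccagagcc

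Hoxd9, which belongs to a group active in the limb and trunk, lay at the edge of the domain. Its window of 6001 bp was covered over 6001 and 5234 bp at E14 and 2530 and 3288 bp at E17, so both E17 libraries were lower than both E14 libraries. The wide E17 peaks ended 507 and 541 bp before its RefSeq start, and in E14 replicate 2 the nearest peak edge was 58 bp from that start, at a gap of 767 bp. In E14 replicate 1 a single peak ran on across Hoxd9 to position 74704667, within Hoxd8. The RefSeq promoter of Hoxd9 had 300 and 193 bases under a peak at E14 and 0 in either E17 library, while the Hoxd10 promoter had all 300 in every library. In E17 replicate 2 a further peak of 792 bp lay in Hoxd9, with a fold enrichment of 3.34 that exceeded only 11.1% of its list.

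From the Hoxd9 start to 3000 bp before the Hoxd1 start, 62.217 kb, peaks covered 56.5 and 33.3 kb at E14 and 2.001 and 1.77 kb at E17. The percentages were 90.8 and 53.5 at E14 and 3.22 and 2.84 at E17. The E14 replicates differed widely, and both were far above both E17 libraries. The means of 44.9 ± 16.4 and 1.88 ± 0.167 kb (SD, n = 2 each) differed by 95.8% of the first. Every Hoxd gene in this interval was without a peak at its start site at E17.
For Hoxd8, which acts in the trunk, the windows of 3 start sites (6538 bp) were covered over 5155 and 2086 bp at E14 and 0 bp in both E17 libraries. In E14 replicate 1 the wide peak of the posterior-acting end stopped just past the first Hoxd8 start (74704615), whereas in E14 replicate 2 the strongest peak at Hoxd8 had a fold enrichment of 4.13, above 77.1% of its list. Neither E14 library covered the Hoxd8 starts at 74704905 and 74705152. The nearest peak to the RefSeq start at E17 was 7.359 and 4.879 kb away.
Hoxd4 and Hoxd3, which act in the neck and hindbrain region, share a distal start at 74711929 and 74711927, so their windows overlap and are not independent. Hoxd4 (17098 bp of windows, 3 start sites) had 17098 and 5919 bp covered at E14 and 0 bp in both E17 libraries. For Hoxd3 (24757 bp, 6 start sites) the values were 24757 and 19597 bp at E14 and 0 bp in both E17 libraries. The 2 E14 libraries were thus closer to each other at Hoxd3 than at Hoxd4, and both were above E17 at each gene. The strongest peaks at Hoxd3 had a fold enrichment of 5.20 and 4.71 at E14, above 93.5% and 85.7% of their lists, and at Hoxd4 of 5.20 and 3.71, above 93.5% and 62.7%. At E17 the nearest peak was 14.737 and 12.257 kb from the RefSeq start of Hoxd3 and 24.722 and 22.242 kb from that of Hoxd4. The Hoxd3 and Hoxd4 promoters were covered over all 300 bases in E14 replicate 1 and over 0 in the other 3 libraries.
Mir10b, the microRNA gene within Hoxd3 and Hoxd4, followed its hosts, with 6001 and 1993 bp of its 6001 bp window covered at E14 and 0 bp in both E17 libraries. Its mature product targets Hox mRNAs among others and is shown with its seed (bases 2 to 8) in capitals, as RefSeq gives it at chr2:74726074-74726096 on the plus strand of GRCm38.p6.
mmu-miR-10b-5p: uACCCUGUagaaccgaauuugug

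Hoxd1, the group 1 gene at the anterior-acting end, kept a short peak. Its window of 6001 bp was covered over 6001 and 5794 bp at E14 and 2572 and 1624 bp at E17, so both E17 values were lower and neither was 0. Each E17 library had a single peak there, above 68.5% and 63.2% of the peaks of its own list (fold enrichment 3.62 and 3.93). The E14 peaks there were above 92.2% and 89.4% of their own lists (4.94 and 5.13). The E17 peaks lay over the start site and were rich in CpG, with 6.03 and 7.76 per 100 bp. The promoter was covered over 300 bases in 3 libraries and 253 in E17 replicate 2. In the last 15.163 kb of the stretch, from 3000 bp before the Hoxd1 start, peaks covered 67.3% and 38.2% at E14 and 16.96% and 10.7% at E17.

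**Figure D2:**
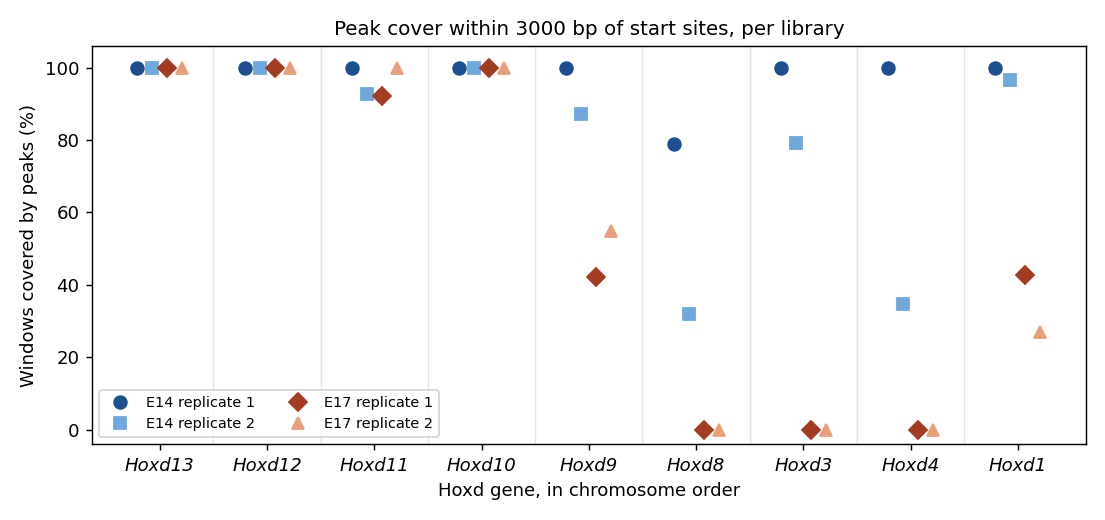
Percent of the windows within 3000 bp of start sites that peaks covered, for the 9 Hoxd genes in chromosome order, with a marker for each library. The 4 markers sit at or above 92.2% from Hoxd13 to Hoxd10, part by stage at Hoxd9 and Hoxd1, and lie at 0 for both E17 libraries at Hoxd8, Hoxd3 and Hoxd4.

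In all, 3 of the 9 genes (Hoxd8, Hoxd3 and Hoxd4) were marked, by a peak close to a start site, in both E14 libraries and in neither E17 library. Over the annotation 25.1% of the 6441 genes marked in both E14 libraries were of this kind, and 23.8% of the 4270 protein-coding ones. The share of all genes was 12.0% with lists of equal number and 40.3% without E14 replicate 2, and the Hoxd count was 3 in both settings. With windows of 5000 bp, 1 Hoxd gene (Hoxd4) was of this kind, and with only peaks of a −log10 q-value of at least 5 the 3 were Hoxd8, Hoxd3 and Hoxd1. In 5 of the 9 genes (Hoxd9, Hoxd8, Hoxd4, Hoxd3 and Hoxd1) both E17 libraries had less cover than both E14 libraries, against 81.9% of all genes marked in both E14 libraries and 84.2% of the protein-coding ones. The median reduction of cover was 48.2% over the 9 members and 60.1% over the 6441 genes. The rule used this contrast, so nothing is read from these shares. Of 19 distinct start sites of the 9 genes, 17 and 12 lay under a peak at E14 and 6 in each E17 library. The share of all annotated start sites under a peak is not given here, so nothing is read from this count either.
Genes between the Hoxd genes followed their position. Evx2, the homeobox gene beside Hoxd13, was covered over its whole window of 6139 bp in all 4 libraries. The non-coding genes Gm28309 at Hoxd11 (6001, 5353, 5319 and 6001 bp) and Gm14396 at Hoxd10 (6082, 5315, 4737 and 4703 bp), in the order E14 replicate 1, E14 replicate 2, E17 replicate 1 and E17 replicate 2, also kept most of theirs. Hoxd3os1, antisense to Hoxd3, had 6683 and 3067 bp at E14 and 0 bp in both E17 libraries, and Gm28230 had 6001 and 1433 bp at E14 and 0 bp in both. Haglr, the non-coding gene upstream of Hoxd1, had 15352 and 12774 bp at E14 and 4573 and 2597 bp at E17, all of it lower at E17. Part of the Haglr cover at E17 came from a peak inside the gene, of 2001 bp in replicate 1 and 973 bp in replicate 2, which overlapped in place and had only 0.950 and 0.411 CpG per 100 bp. Outside the cluster, Lnpk, Mtx2, Atf2, Atp5g3, Hnrnpa3 and Nfe2l2 had no peak this close to a start site in any of the libraries, and Chn1 had 3162 and 2508 bp at E14 and 2431 and 2537 bp at E17.

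E14 replicate 2 already lacked a peak at some of the start sites that had none at E17. Its peaks left 12 inner gaps (gaps with a peak on either side) against 4 in E14 replicate 1 and 3 in each E17 library. Some of these gaps lay over the starts of Hoxd9 (767 bp) and Hoxd8 (2422 bp), the Hoxd4 start at 74721978 (7507 bp) and the distal start of Hoxd3 and Hoxd4 (1421 bp). The later start sites of Hoxd3, from 74732913 to 74745722, lay under a peak of 22.3 kb in this library. The last Hoxd4 start, at 74727074, lay under a peak of 1433 bp. From the Hoxd8 gap to 74727294, within Hoxd3 and Hoxd4, stood 7 peaks of 247 to 1679 bp with a fold enrichment of 3.14 to 3.71, none of them above more than 62.7% of that list. The gap at Hoxd9 had 69.0% G and C and that at Hoxd8 61.9%, while the longer one at Hoxd4 had 46.6%, under the 48.4% of the stretch. In E14 replicate 1 the Hoxd8 starts at 74704905 and 74705152 also lay in a gap, of 1383 bp and 74.6% G and C. Other short gaps of E14 replicate 2 lay away from start sites and had as little as 36.8% G and C. High G and C content thus went with the short gaps at the starts of Hoxd9 and Hoxd8 and over the Hoxd11 exon. It was also found under the short E17 peaks over the Hoxd1 start, with 60.6% in replicate 1 and 65.1% in replicate 2. Its part in the peak calls was not tested.
By pattern, the bases covered in all 4 libraries had 49.6% G and C and 3.04 CpG per 100 bp, and those covered in both E14 libraries only had 49.1% and 2.60. The bases covered in E14 replicate 1 only had 45.9% and 1.78, and repeats took 20.01% of them against 14.1% of the bases covered in all 4. The wide E17 gaps from Hoxd9 to Haglr, with 49.5% and 49.1%, were close to the bases covered in all 4 libraries in G and C.

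**Figure D3:**
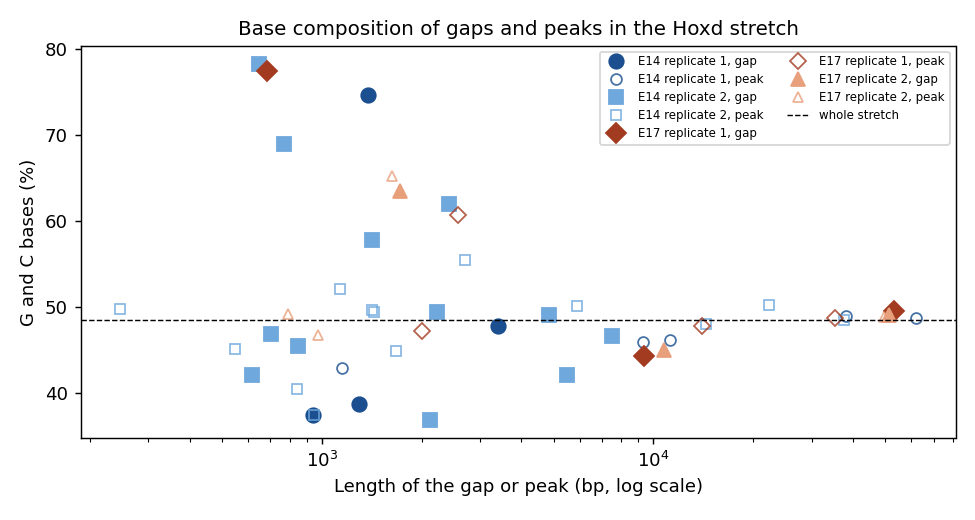
G and C content in percent against length in bp (log scale) for each peak (open markers) and inner gap (filled markers) of the Hoxd stretch, by library, with a dashed line at the 48.4% of the whole stretch. Short gaps reach 78.2%, whereas the wide E17 gaps and the wide peaks of all libraries sit near the line.

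The other clusters, on chromosomes 6, 11 and 15, gave the setting. In the order E14 replicate 1, E14 replicate 2, E17 replicate 1 and E17 replicate 2, peaks covered 89.5%, 78.8%, 72.2% and 62.5% of the Hoxa stretch, 92.9%, 63.4%, 40.3% and 36.5% of Hoxb, and 96.9%, 71.2%, 48.5% and 48.3% of Hoxc. The mean was 19.98% lower at E17 in Hoxa, 50.9% lower in Hoxb and 42.4% lower in Hoxc, beside 53.7% in Hoxd, and whether the clusters differ in this was not tested. The longest run without a peak at E17 was 66.2 and 69.2 kb in Hoxc, 53.2 and 51.3 kb in Hoxd, 38.3 and 37.6 kb in Hoxb and 7.87 and 7.48 kb in Hoxa. In Hoxc this run reached the border of the stretch, whereas in Hoxd it had a peak on either side. Hoxd and Hoxc each had 3 genes with a peak in both E14 libraries and in neither E17 library (in Hoxc these were Hoxc4, Hoxc6 and Hoxc8), and Hoxa and Hoxb had 0.
Genes of the same group in different clusters are paralogues, and groups 10 to 13 can be set beside groups 1 to 9. Of the 4 Hoxd genes of groups 10 to 13, 0 had less cover in both E17 libraries, and of the 8 in the other clusters 1 had, Hoxc10 (6001 bp in both E14 libraries, 5260 and 5062 bp at E17). All 5 Hoxd genes of groups 1 to 9 had less, as did 19 of 22 in the other clusters, beside 81.9% of all genes marked in both E14 libraries. The 22 include Hoxb2, which was not marked in both E14 libraries (4330 and 0 bp), so these shares have unlike bases. Of the 12 genes of groups 10 to 13, 9 had their windows covered whole in all 4 libraries. Cover is at its maximum there and cannot show a weaker mark. The share of all genes covered whole in all 4 libraries is not given here, so nothing is read from this count. For group 3, Hoxa3 (13242, 7707, 6222 and 4058 bp) and Hoxb3 (19562, 9832, 896 and 692 bp) had a peak in all 4 libraries, unlike Hoxd3. For group 4, Hoxc4 went like Hoxd4 (10863, 1814, 0 and 0 bp), Hoxb4 had 6001, 3780, 0 and 1042 bp, and Hoxa4 kept 5032, 4780, 4147 and 4210 bp. For group 8, Hoxc8 had 7283, 4531, 0 and 0 bp, like Hoxd8, whereas Hoxb8 had 6821, 5232, 4615 and 4400 bp. The grouping was made after the values were seen.

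**Figure D4:**
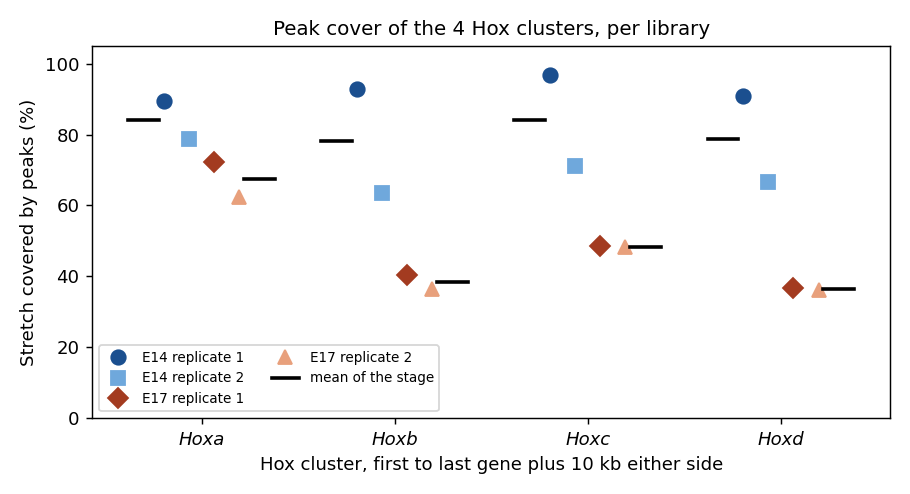
Percent of each Hox cluster stretch (first to last gene plus 10 kb on either side) covered by peaks, with a marker for each library and a bar at the mean of each stage. In Hoxd the E17 libraries sit at 36.7% and 36.2%, below the E14 libraries at 90.9% and 66.6%.

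Among cofactors of the TALE class, which bind DNA beside Hox proteins, Pbx2, Pbx3, Meis1, Meis2 and Pknox1 had no peak within 3000 bp of their starts in any library, and Pknox2 had one in all 4 (13203 and 12210 bp at E14, 11873 and 10571 bp at E17). Of 7 genes that set Hox expression along the body, Cdx1, Cdx2, Cdx4 and Cyp26a1 had a peak in all 4 libraries. Gdf11, a ligand that sets posterior Hox expression, had 1764 and 1236 bp at E14 and 0 bp in both E17 libraries. Rarb, a retinoic acid receptor, had 4250 and 0 bp at E14 and 712 and 1155 bp at E17, and Gli3 had no peak in any library. Among genes of the Polycomb and Trithorax machinery, Ezh2, Kdm6a and Kdm6b had no peak in any library. Bmi1, Cbx7 and Cbx8, subunits of Polycomb repressive complex 1, had one in all 4, and Kmt2a, a Trithorax methyltransferase, had 565 and 288 bp at E14 and 0 bp in both E17 libraries.
By the percent of windows covered in the 4 libraries, the mean of Hoxd8, Hoxd3 and Hoxd4 was 92.9 and 48.6 at E14 and 0 at E17. Only protein-coding genes outside the Hox clusters were compared with this mean. The closest were Ly6g6e (86.6 and 47.3 at E14) and Fads6 (85.9 and 42.4), both at 0 at E17. Their distances were 6.52 and 9.37 percentage points. This likeness is over 4 libraries only.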

How the data were processed

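H3K27me3 ChIP-seq peak lists of 2 E14 and 2 E17 libraries were used, with groups from the labels. The submitters' processing notes name Bowtie2 2.3.5.1, SAMtools 1.9, MACS2 2.2.7.1, deepTools 3.5.1 and build mm10 (GRCm38). The authors called broad peaks at a q-value of 0.01 and kept 1 list per library. The control of the peak call and the read filters are not given in the sources used here. Subsampling is stated for E18.5 samples, and whether it covers these libraries is not clear. The labels name medium with serum, sonication and an Ion Torrent kit, while the methods give AmnioMAX medium, enzymatic shearing and Illumina sequencing. The deposited columns are a score, a fold enrichment (ratio), and, per peak, the −log10 of the p-value and of the q-value. The score and the −log10 p-value the authors gave were not used further. An input library was not analysed here.
The highest chromosome 2 peak ended at 182013148, within the 182113224 bp of GRCm38. Genes came from GENCODE vM21, and sequences from RefSeq (GRCm38.p6). A gene was marked when a peak overlapped, by at least 1 bp, the 3000 bp either side of any start site. Covered bases were counted once. Named were all Hoxd genes, all genes in the stretch, the cluster neighbours, the Hoxa, Hoxb and Hoxc genes, and fixed lists of cofactors, upstream genes, Polycomb and Trithorax genes and cell type markers, of which some genes are not reported here. The members and lists were chosen with earlier results of these data known. A percentile is the rank of a peak's fold enrichment in its list, in percent, with ties at their mean rank and the peak itself counted.
Python 3.11.15, numpy 2.4.6, pandas 2.3.3 and pysam 0.24.0 were used. On simulated data, 8000 covered lengths had 0 mismatches and 300 of 300 planted regions were recovered. Alternatives for the lists were stricter −log10 q-values (3 and 5), peaks of at least 1000 bp, lists of equal number (7107 peaks) and peaks joined within 3000 bp. Alternatives for the intervals were windows of 1000 and 5000 bp, gene bodies, start sites of protein-coding transcripts only, no flank and flanks of 50 kb. The others were at least 500 bp covered, means within replicate numbers, and omission of 1 library at a time.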

Additional observations from a re-analysis of the deposited data

How the results depend on the processing

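The length of the Hoxd stretch under peaks was lower at E17 in every setting, by 45.3% to 59.9%. With the replicate number as a block (means of the decreases within numbers 1 and 2, 59.6% and 45.7%) it was 52.7% lower. The numbers are not known to pair the samples. The 3 genes with a peak in both E14 and in neither E17 library numbered 3 in every setting run but 1. With windows of 5000 bp only Hoxd4 remained, since the windows of Hoxd3 and Hoxd8 then reached E17 peaks. At a −log10 q-value of at least 5 the 3 were Hoxd1, Hoxd3 and Hoxd8. From the Hoxd9 start to 3000 bp before Hoxd1 the decrease was 97.7% at a −log10 q-value of at least 3, 100% at 5 and 97.7% with peaks of at least 1000 bp, and 94.3% to 96.7% in the other settings, the E17 cover of this interval being short peaks of 792 to 2001 bp, some of which these settings remove. Before Hoxd9 it was 0.410% to 2.19%. The background share of 25.1% was 12.0% with lists of equal number and 40.3% without E14 replicate 2. The 5 genes with less cover in both E17 libraries became 4 with windows of 1000 bp (without Hoxd1), 4 at a −log10 q-value of at least 5 (without Hoxd4) and 6 without E17 replicate 2 (with Hoxd11). Of 36 values of single Hoxd genes under alternatives, 9 moved by more than the spread between replicates, 12 were 0 and 0 turned in direction. Apart from Hoxd1 at a −log10 q-value of at least 5, the moved values came with windows of 1000 or 5000 bp. A covered length in bp changes with the window itself. The values of 0 were those of Hoxd10, Hoxd12 and Hoxd13, which were covered whole and could not move. With 2 libraries a stage and no read counts, a peak missing at E17 may lie just under the threshold.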
